A study of Mus musculus with 4 samples.

Results

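Mouse genes of cholesterol synthesis, its regulators and the lipid enzymes under the same control were followed in macrophages with and without a bacterial stimulus. The set holds 28 genes, taken by name from the 52550 gene entries of each count file: 7 enzymes of the mevalonate pathway, 11 enzymes that turn its product into squalene and then sterols, 6 regulators and sterol carriers, and 4 lipogenic enzymes. The cells were bone marrow-derived macrophages of C57BL/6 mice aged 8 to 10 weeks, either wild type or deficient in the microRNA miR-7. Each genotype was left unstimulated or given lipopolysaccharide (LPS, a component of the outer membrane of gram-negative bacteria) at 100 ng/mL for 12 h. One polyA-selected RNA-seq library stood for each of the 4 groups. No source used here gives how the miR-7 deficiency was made or which of the genes encoding miR-7 it affects, and mature miR-7 was not measured in these libraries.

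Cholesterol is built from acetyl-CoA through mevalonate and squalene by a chain of enzymes, most of them in the endoplasmic reticulum. Transcription of these enzymes is driven by the sterol regulatory element-binding proteins (SREBPs), membrane-bound precursors that the escort protein SCAP carries to the Golgi for cleavage when sterols are scarce, and that INSIG proteins hold back when sterols are plentiful. Srebf2 encodes the form best known for cholesterol genes and Srebf1 the forms best known for fatty acid genes. In macrophages this pathway is known to respond to bacterial products and interferon, and oxysterols are among its known brakes. Cleavage of the SREBP proteins was not measured here, so the levels below are those of RNA alone.

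Total counts ran from 33937823 to 42074624 reads per library, and levels are given as CPM, the count scaled to a common library total with the trimmed mean of M values (TMM) method. The macrophage markers summed to 22156 and 22731 CPM in the unstimulated libraries and to 13394 and 15149.5 CPM with LPS, wild type first. Most of that sum was Lyz2 (17670 CPM in wild-type unstimulated cells), which fell, while Adgre1, Fcgr1 and Cd14 of the same list rose (edgeR). The sums hide differences between the genotypes. Without LPS, Itgam was at 965 CPM in wild type and 291 CPM in deficient cells, and Fcgr1 at 52.6 and 23.8 CPM. Cd68 went the other way, at 606 and 844 CPM. Mertk was lower with LPS in wild type (174 to 130 CPM) and higher in deficient cells (151 to 222 CPM). No gene of this list passed edgeR's genotype test. Of the lists for neutrophils, T cells, B cells, dendritic cells, mast cells, fibroblasts, erythroid cells and adipocytes, each summed to at most 32.9 CPM in every library, and Ly6g, Elane, Cd3d, Trac, Flt3, Mcpt8, Ms4a2, Mcpt4, Adipoq, Plin1 and Lep were at 0 counts in all 4. Other members of these lists were detected and moved with LPS. Dendritic Clec9a fell (edgeR, adjusted p = 0.00434), with unstimulated levels of 23.1 and 29.8 CPM and LPS levels of 4.34 and 1.31 CPM, wild type first. Ighm of the B cell list, at 6.43 and 9.89 CPM unstimulated, also fell (edgeR, adjusted p = 0.000986). Xcr1, Lck and Cpa3 rose (edgeR), none of them above 7.36 CPM. The endothelial list (4 genes) summed to 42.7 and 35.2 CPM without LPS and to 172 and 255 CPM with it, of which Kdr made up 162 and 243 CPM. A list of 8 LPS-induced genes summed to 430 CPM in the wild-type unstimulated library, 68.0 CPM in the deficient unstimulated library, 34536 CPM in wild type with LPS and 25863.5 CPM in deficient cells with LPS. The source of the difference between the unstimulated libraries was not tested. The genotypes also differed in sex-linked RNA: Xist stood at 714 and 686 CPM in the deficient libraries against 0.513 and 0.483 CPM in wild type, and the Y-linked Ddx3y at 0.229 and 0.320 CPM against 43.0 and 46.4 CPM. Genotype and sex therefore cannot be told apart. In bulk RNA, fewer cells of a type and less RNA per cell cannot be told apart either, and the part that the marker lists play in the results was not tested.

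The sequences bound by the SREBPs introduce the set, since the sterol element is the feature these promoters are known for. RefSeq promoter entries on GRCm38.p6 (250 bases before to 50 after a start, so 300 bases) were matched by symbol for 23 of the 28 genes. The letters TCACNCCA, searched on both strands, occurred in the promoters of 3 of those 23 genes (13%) and of 4.54% of the 9385 tested genes with an entry. They are shown with 11 bases on either side, 5′ to 3′ on the strand of the gene, with the match in capitals.
Hmgcs1: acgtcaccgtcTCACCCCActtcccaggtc
Srebf2: atgacgcaccaTCACCCCAtgagccgcttc
Msmo1: tctcactattcTCACTCCAtccgcgcagcc
The match lay 137 bases before the start in Hmgcs1 (chr13:119690214-119690221), 162 bases before it in Srebf2 (chr15:82147107-82147114) and 177 bases before it in Msmo1 (chr8:64733748-64733755). All 3 genes lie on different chromosomes, and Srebf2 is itself the gene of the factor. A looser form, TCACNCNA, which contains the first, was present in 6 of the 23 genes (26.1%) against 11.9% of tested genes. The 3 genes it added are given in the same way.
Fasn: ttgccggcccaTCACCCTAttgcctagcaa
Nsdhl: agcacttaccaTCACCCAAcggactctgcc
Srebf1: gccatgtgcgcTCACCCGAggggcggggca
These matches lay at chr11:120824668-120824675 for Fasn, chrX:72918316-72918323 for Nsdhl and chr11:60210479-60210486 for Srebf1. The letters CCAAT, the box of the SREBP partner NF-Y, stood in 20 of the 23 genes (87.0%) against 42.9% of tested genes, on either strand and with some boxes overlapping each other. GGGCGG, the box of Sp1, also stood in 20 of 23 (87.0%), against 67.8% of tested genes. A match of letters is a description of these windows and not a measured binding site.

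LPS lowered a large part of the set. Of the 28 genes, 12 fell, 0 rose and 16 did not pass the test, so 42.9% of the genes fell, while over all 12730 genes tested 16.3% fell and 18.0% rose. The 28 genes were chosen with earlier results of these data known, so this contrast is a description and not an independent test. The fitted LPS effect had a median of -0.67 (log2, LPS over unstimulated) in the set and -0.04 over all genes tested, and it was negative for 24 of the 28 genes and for 6591 of the 12730. By role, 2 of 7 mevalonate enzymes fell, 7 of 11 squalene and sterol enzymes, 2 of 6 regulators and carriers, and 1 of 4 lipogenic enzymes. All 28 genes passed the filter of at least 1 CPM in 2 or more libraries.

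The test was edgeR's quasi-likelihood test with LPS and genotype as additive terms and Benjamini-Hochberg adjustment over all 12730 genes, called at an adjusted p under 0.05. The SE given after ± with edgeR values was worked back as the absolute effect over the square root of the test's F statistic. With 1 library per group, the LPS pairs of the genotypes stood in for repeats (2 libraries per condition, 1 residual degree of freedom), nothing in the labels says that libraries came from separate animals or cultures, and the p-values measure how alike the pairs were. At an unadjusted p under 0.05 there were 17 lower genes (22.4% of all genes) and 1 higher gene, Insig2 (22.5%), and DESeq2's Wald test called 12 lower (15.2%) and 0 higher (19.3%). Scaling by total counts gave 23 fallen genes (30.2% of all genes), but it also moved the median of all genes to -0.45. In a model with LPS as its single factor 10 genes fell (14.4% of all genes). With 1 library left out of that model, 7 fell without wild-type LPS (10.5%) and 11 without deficient LPS (12.5%), but 1 without the wild-type unstimulated library (4.55%) and 1 without the deficient unstimulated library (6.02%), so that in the latter 2 fits the set did not exceed the share of all genes. Of the 12 calls, that of Dhcr7 held in all 4 of those fits, those of Mvd, Sc5d, Stard4 and Fasn in 2, those of Sqle, Cyp51, Tm7sf2, Nsdhl and Ebp in 1, and those of Hmgcs1 and Insig1 in 0. In another alternative, the excess of LPS-induced RNA in the wild-type unstimulated library was assumed to be carry-over of wild-type LPS RNA. With it taken out as a share of 1.45% of the wild-type LPS counts, 12 genes fell (15.4% of all genes). That assumption was not tested.

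**Figure D1:**
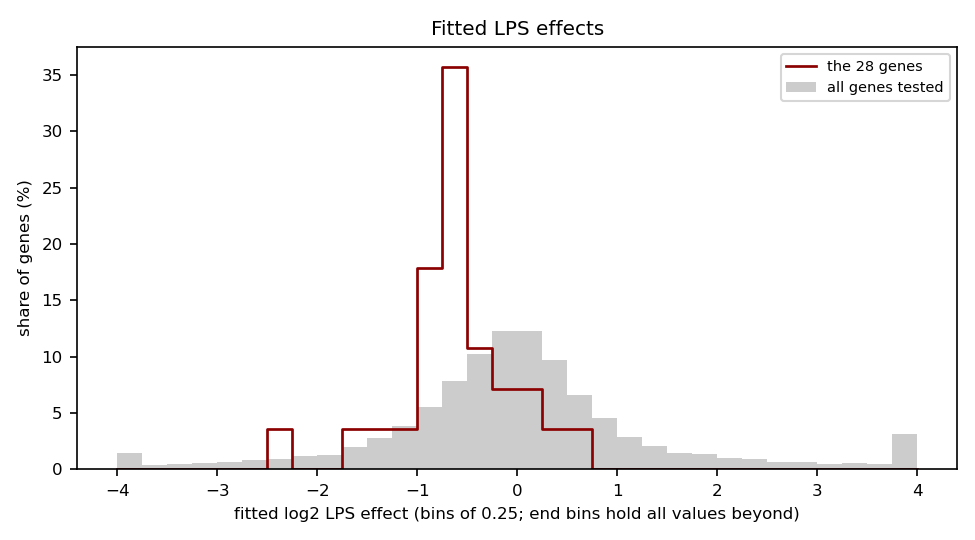
Distribution of fitted LPS effects (x axis, log2 in bins of 0.25; the end bins hold all values beyond) as a share of genes in percent (y axis), with grey bars for the 12730 genes tested and the line for the 28 genes of the set. The set lies mostly to the left of 0, with a median of -0.67 against -0.04.

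Before any stimulus the genes spanned a wide range of levels per kilobase of merged exon. In wild-type unstimulated cells the highest was the desaturase Scd2 at 129 CPM per kb, followed by Acly at 59.9, Mvd at 55.2, Cyp51 at 46.5 and Insig1 at 45.7 CPM per kb. The lowest was Tm7sf2 at 2.43 CPM per kb, with Acaca at 6.07 and Insig2 at 6.15 CPM per kb. Neighbours in this order such as Cyp51 and Insig1, or Acaca and Insig2, differed by less than the change of either between libraries. In deficient unstimulated cells Hmgcs1 stood at 80.7 CPM per kb, second to Scd2 at 138 CPM per kb.

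**Figure D2:**
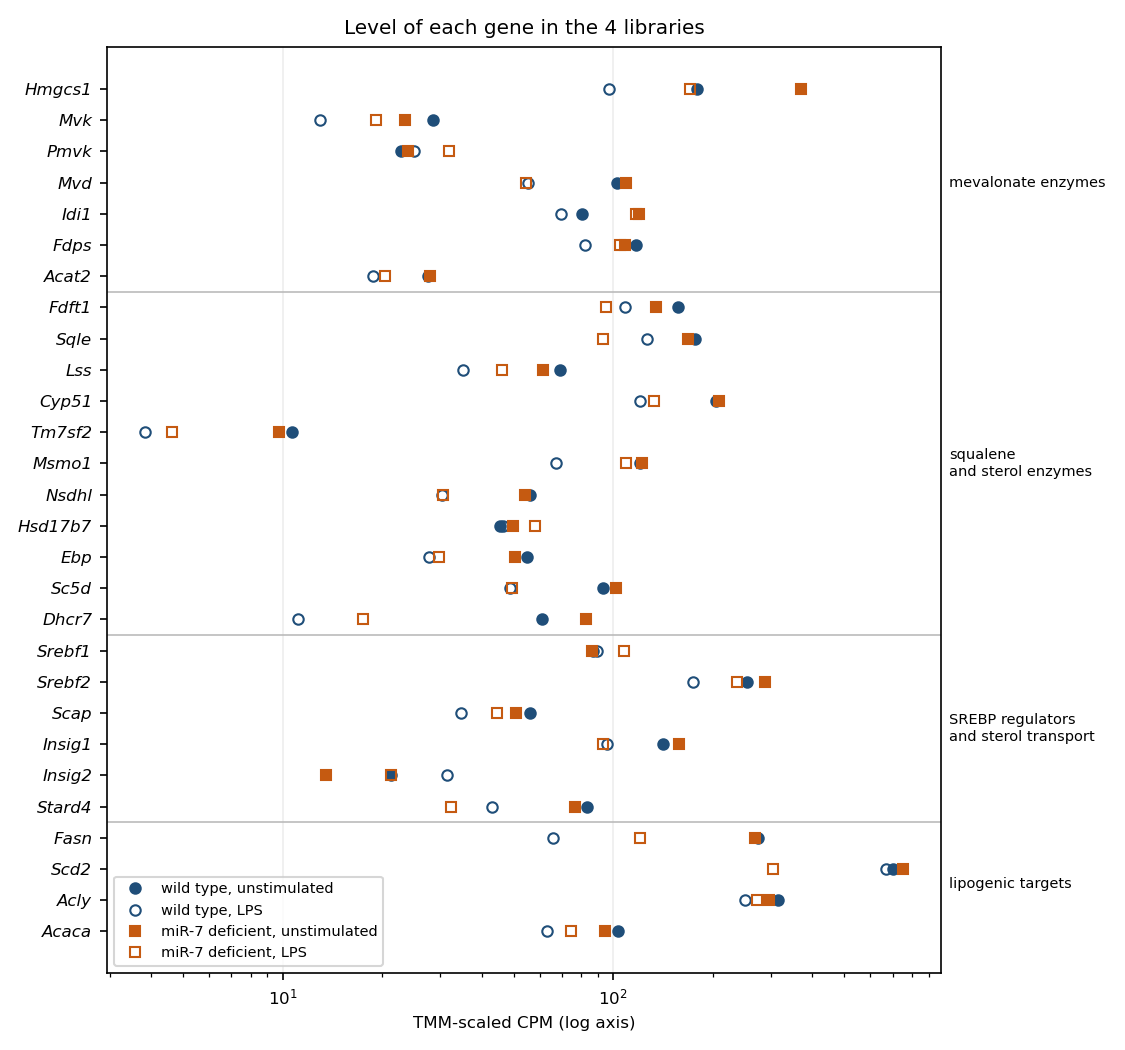
Level of each of the 28 genes (rows, by role) in the 4 libraries, as TMM-scaled CPM on a log axis; circles are wild type, squares miR-7 deficient, filled symbols unstimulated and open symbols LPS. Open symbols lie left of both filled ones for 23 of the 28 genes, and Scd2 has the highest levels, between 304 and 754 CPM.

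The mevalonate enzymes divided into a pair that fell and a majority that did not pass the test. Hmgcs1 (ENSMUSG00000093930, chr13:119690379-119708260 on GRCm38), which condenses acetyl-CoA units toward mevalonate, was at 179 CPM in wild type and 371 CPM in deficient cells without LPS, and at 97.4 and 170.4 CPM with it. The level with LPS in deficient cells was close to the unstimulated level of wild type, so the conditions were separate by a narrow margin. Its LPS effect was -0.999 ± 0.19 (SE; edgeR, adjusted p = 0.0092), and the call was lost with LPS as the single factor (adjusted p = 0.152). Leaving 1 library out of that model gave effects from -1.47 (without deficient LPS) to -0.45 (without the deficient unstimulated library), none of which passed (highest adjusted p = 0.472). Mvd, which makes isopentenyl pyrophosphate by decarboxylation, went from 103 to 55.4 CPM (wild type) and 109 to 54.4 CPM (deficient). Both genotypes thus lay almost on top of each other in each condition, and Mvd fell by 0.95 ± 0.18 on the log2 scale (edgeR, adjusted p = 0.00986).

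The other 5 mevalonate genes were not called. Mvk, the mevalonate kinase, was at 28.5 and 13 CPM in wild type without and with LPS and at 23.5 and 19.2 CPM in deficient cells. Both LPS values lay below both unstimulated ones, but the drop was mostly that of the wild-type pair, and the fitted effect of -0.71 had an adjusted p of 0.0898 (edgeR). Idi1, the isomerase of the pathway, read 80.7 and 69.6 CPM in wild type and 119.6 and 117 CPM in deficient cells, so genotype separated its libraries more than LPS did. Fdps, which joins isoprene units into farnesyl pyrophosphate, read 117 and 82.0 CPM in wild type and 108 and 105 CPM in deficient cells. The thiolase Acat2 was at 27.6 and 18.8 CPM in wild type and 28 and 20.4 CPM in deficient cells, with a fitted effect of -0.50 (edgeR, adjusted p = 0.108). Pmvk, the phosphomevalonate kinase, had a positive value of 0.27 (edgeR, adjusted p = 0.369), its levels being 22.8 and 24.9 CPM in wild type and 24.0 and 31.9 CPM in deficient cells.

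Among the squalene and sterol enzymes the deepest change was at the end of the chain. Dhcr7 (ENSMUSG00000058454, chr7:143823145-143848410), the reductase of the last steps to cholesterol, was at 60.8 CPM in wild type and 83.1 CPM in deficient cells without LPS, and at 11.1 and 17.5 CPM with it. With LPS, 18.3% of the unstimulated level remained in wild type and 21.1% in deficient cells, and the groups were far apart. The fitted effect was -2.35 ± 0.21 (edgeR, adjusted p = 0.000631), the most negative of the 28 genes, and it passed under all 7 alternative models, filters and scalings and in the 4 fits that left out 1 library (highest adjusted p = 0.0298). Sc5d, the desaturase that acts just before it, went from 93.4 to 48.9 CPM (wild type) and 102 to 49.5 CPM (deficient). Here too the genotypes were close in each condition, and Sc5d fell by 0.99 ± 0.18 (edgeR, adjusted p = 0.00864).

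Several middle steps of sterol synthesis fell by similar amounts. Tm7sf2, a sterol C14 reductase, had the lowest levels of the set, 10.7 and 9.79 CPM without LPS and 3.83 and 4.65 CPM with it (edgeR, -1.28 ± 0.31, adjusted p = 0.0215). Ebp, the sterol isomerase, went from 54.7 to 27.8 CPM (wild type) and 50.5 to 29.6 CPM (deficient) (edgeR, adjusted p = 0.0198). Nsdhl, which removes the C4 carboxyl group, went from 56.2 to 30.3 CPM (wild type) and 54.1 to 30.7 CPM (deficient) (edgeR, adjusted p = 0.0194). Ebp and Nsdhl are both on chromosome X. Their levels in the deficient libraries, which also differed in sex-linked RNA, were within 0.12 in log2 of wild type in either condition. Cyp51, the lanosterol demethylase, went from 205 to 121 CPM (wild type) and 209 to 133 CPM (deficient), and fell by 0.71 ± 0.18 (edgeR, adjusted p = 0.0271). Sqle, the epoxidase that commits squalene to sterols, went from 176 to 126 CPM (wild type) and 169 to 93.1 CPM (deficient) (edgeR, -0.67 ± 0.19, adjusted p = 0.0406). The Sqle call was lost under 3 of the 7 alternatives that keep every library: with DESeq2's size factors, without a filter on low counts (its highest adjusted p there, 0.0751) and with LPS as the single factor. Without deficient LPS its effect was -0.43. The Cyp51 call was lost without the filter (adjusted p = 0.0537).

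The remaining 4 sterol genes did not pass. Fdft1, the squalene synthase, was at 157 and 109 CPM in wild type and 135 and 95.5 CPM in deficient cells (edgeR, -0.52, adjusted p = 0.0691). Lss, the cyclase that makes lanosterol, was at 69.2 and 35 CPM in wild type and 61.5 and 46.2 CPM in deficient cells (edgeR, -0.70, adjusted p = 0.0565). Msmo1, the C4 methyl oxidase, was at 120.4 and 67.0 CPM in wild type and 123 and 109 CPM in deficient cells. In these 3 genes both LPS libraries were below both unstimulated ones, with the deficient LPS value of Msmo1 nearest to overlap. Hsd17b7, a ketoreductase of the same C4 demethylation, was the exception in sign, at 45.5 and 46.4 CPM in wild type and 49.7 and 58.2 CPM in deficient cells (edgeR, 0.13, adjusted p = 0.651).

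Neither SREBP gene nor that of the escort protein passed the test. Srebf2 read 255 and 174 CPM in wild type and 289 and 237 CPM in deficient cells (edgeR, -0.42 ± 0.19, adjusted p = 0.143), and both LPS libraries lay below both unstimulated ones. Srebf1 read 87.1 and 89.4 CPM in wild type and 86.2 and 108 CPM in deficient cells (edgeR, 0.18, adjusted p = 0.494). Scap, the escort protein, read 56.2 and 34.6 CPM in wild type and 50.7 and 44.4 CPM in deficient cells (edgeR, -0.45, adjusted p = 0.172). In Scap, too, both LPS values were the lowest, with most of the decrease in wild type.

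The INSIG genes had opposite signs. Insig1, itself a well-known SREBP target, went from 141 to 95.9 CPM (wild type) and 159 to 93.3 CPM (deficient) and fell by 0.66 ± 0.18 (edgeR, adjusted p = 0.0344), a call lost without the filter (adjusted p = 0.0661). Insig2, its paralog, was higher with LPS in each genotype, at 21.4 and 31.5 CPM in wild type and 13.5 and 21.2 CPM in deficient cells. Its groups overlapped across genotypes and its value of 0.60 ± 0.21 missed the threshold (edgeR, adjusted p = 0.0668). Stard4, a soluble carrier of cholesterol between membranes, went from 83.4 to 43.1 CPM (wild type) and 76.6 to 32.3 CPM (deficient). It fell by 1.10 ± 0.20 (edgeR, adjusted p = 0.00808), more than any other gene of this role.

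Of the lipogenic enzymes, Fasn fell and the other 3 did not pass. Fasn (ENSMUSG00000025153, chr11:120805846-120824547), the fatty acid synthase, was at 274 and 269 CPM without LPS, and at 65.8 CPM in wild type and 120.3 CPM in deficient cells with it. The unstimulated libraries were alike and the LPS libraries were not, yet both LPS values were far below the others, and Fasn fell by 1.61 ± 0.26 (edgeR, adjusted p = 0.00545). Acaca, which makes malonyl-CoA for it, was at 104 and 63.1 CPM in wild type and 94.2 and 74.4 CPM in deficient cells (edgeR, -0.53, adjusted p = 0.0839). Acly, which supplies cytosolic acetyl-CoA, was at 316 and 251 CPM in wild type and 296 and 272 CPM in deficient cells (edgeR, -0.23, adjusted p = 0.398). Scd2 (ENSMUSG00000025203, chr19:44293674-44306864), a desaturase that makes monounsaturated fatty acids, was at 704 and 669 CPM in wild type and at 754 and 304 CPM in deficient cells. A single library, deficient with LPS, was low, and the fitted effect of -0.69 ± 0.32 did not pass (edgeR, adjusted p = 0.149).

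Within each genotype the LPS ratio was also taken on its own, with an exact 95% Clopper-Pearson interval. These intervals cover counting error only, and may understate it, since PCR copies are not independent molecules. With 1 library per group no test is possible within a pair. A gene was counted where its whole interval lay beyond 1.5-fold. In wild type 15 of the 28 genes were lower by that measure (21.6% of all genes tested), in deficient cells 13 (19.9%), and 10 in both (14.7%). These 10 were Hmgcs1, Mvd, Cyp51, Tm7sf2, Nsdhl, Ebp, Sc5d, Dhcr7, Stard4 and Fasn. No gene of the set was higher beyond 1.5-fold in either pair, where 22.7% and 18.9% of all genes were. Beyond 2-fold there were 3 lower genes in wild type (13.3% of all genes) and 5 in deficient cells (11.8%), with Dhcr7 and Fasn in both (8.64%). At that limit the shares in the set were near those of all genes, unlike at 1.5-fold. Without regard to size, both LPS libraries lay below both unstimulated ones for 23 of the 28 genes (37.2% of all genes), and above them for Pmvk and Srebf1 (33.7%).

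**Figure D3:**
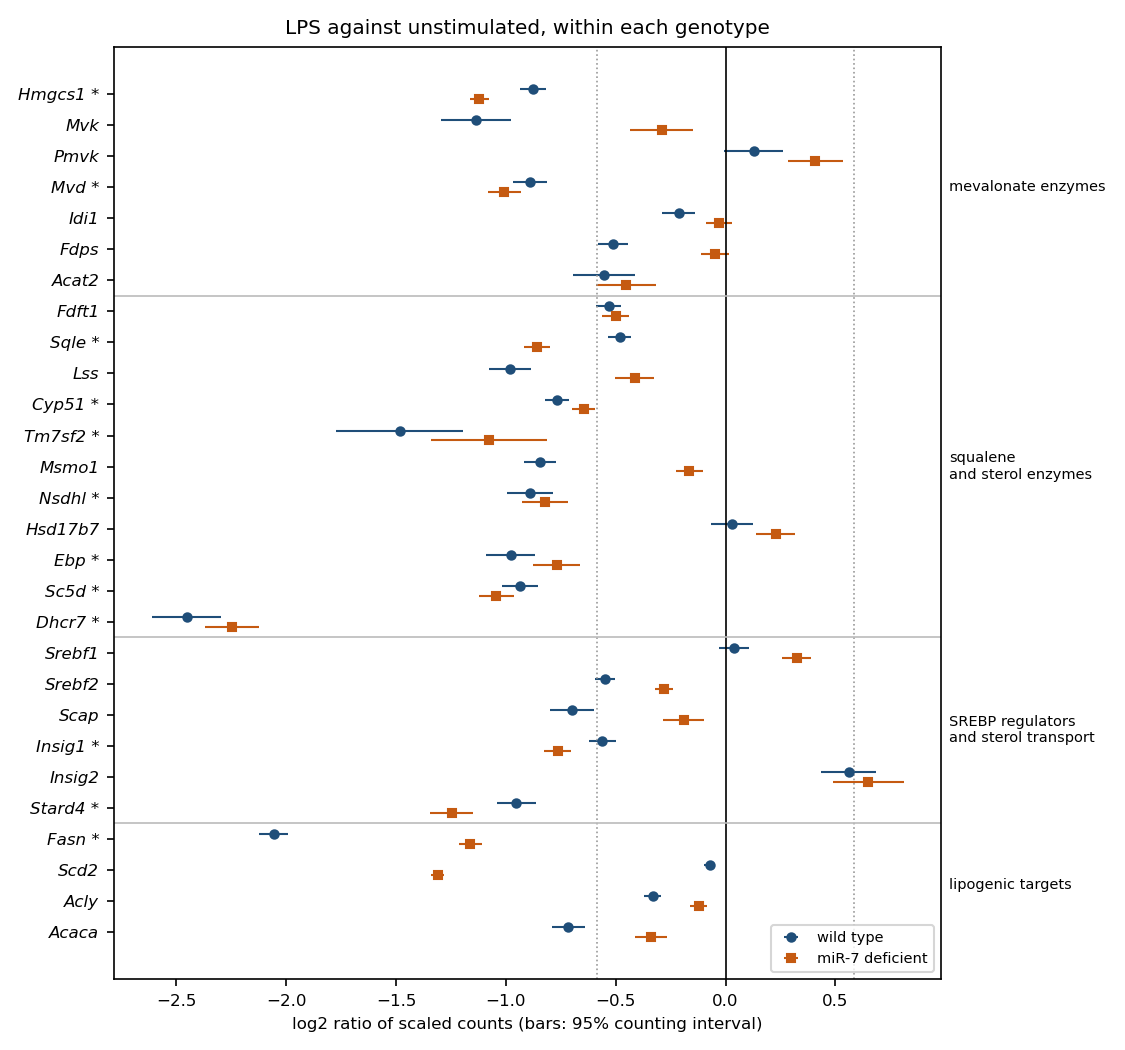
Log2 ratio of LPS over unstimulated for each gene (rows, by role) in wild type (blue circles) and miR-7 deficient cells (orange squares), with 95% counting intervals as bars; dotted lines mark 1.5-fold and a star after a name marks the 12 genes that fell in the edgeR test. Dhcr7 is far to the left in both genotypes, and Scd2 shows the widest gap between the genotypes, at -0.07 and -1.31.

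For genotype, no gene of the set passed edgeR's test in either direction, where 0.385% of all genes were higher and 0.165% lower in deficient cells. At an unadjusted p under 0.05 there were 4 genes: Hmgcs1, Idi1 and Dhcr7 higher (4.52% of all genes) and Insig2 lower (3.08%). The set's median genotype effect was 0.08 (log2, deficient over wild type) and that of all genes 0.02. DESeq2's Wald test called 1 gene higher, Hmgcs1 (0.90 ± 0.22, adjusted p = 0.00365), and 0 lower, against 1.15% and 0.636% of all genes. In edgeR the Hmgcs1 effect was 0.93 ± 0.19 with an adjusted p of 0.188, the lowest of the set. As n is 1 library per group and sex moves with genotype, none of these values measures the spread among mice.

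The genotype ratios were near 1 for most of the set in unstimulated cells and more often above 1 with LPS. The median log2 ratio was -0.02 without LPS and 0.25 with it, while over all genes it was -0.00 and 0.02. In unstimulated cells 1 gene, Hmgcs1, was higher in deficient cells beyond 1.5-fold (6.47% of all genes) and 0 were lower (3.29%). With LPS, 4 genes were higher, namely Hmgcs1, Idi1, Msmo1 and Fasn (6.24%), and Scd2 was lower (6.85%). Hmgcs1 was 2.07-fold higher without LPS and 1.75-fold higher with it, the one gene past 1.5-fold in both pairs. The same sign in both pairs, higher in deficient cells, was seen for 10 of the 28 genes (27.1% of all genes). Idi1 was 1.48-fold and 1.68-fold higher, and both its deficient libraries lay above both wild-type ones, as did those of Hsd17b7 (9.27% of all genes). With LPS, 16 of the 28 intervals lay wholly above a ratio of 1 (34.8% of all genes) and 5 wholly below (31.6%). Scd2 in deficient cells with LPS was at 0.454 of the wild-type level, and Insig2 was low in both pairs, at 0.634 and 0.674 of wild type.

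**Figure D4:**
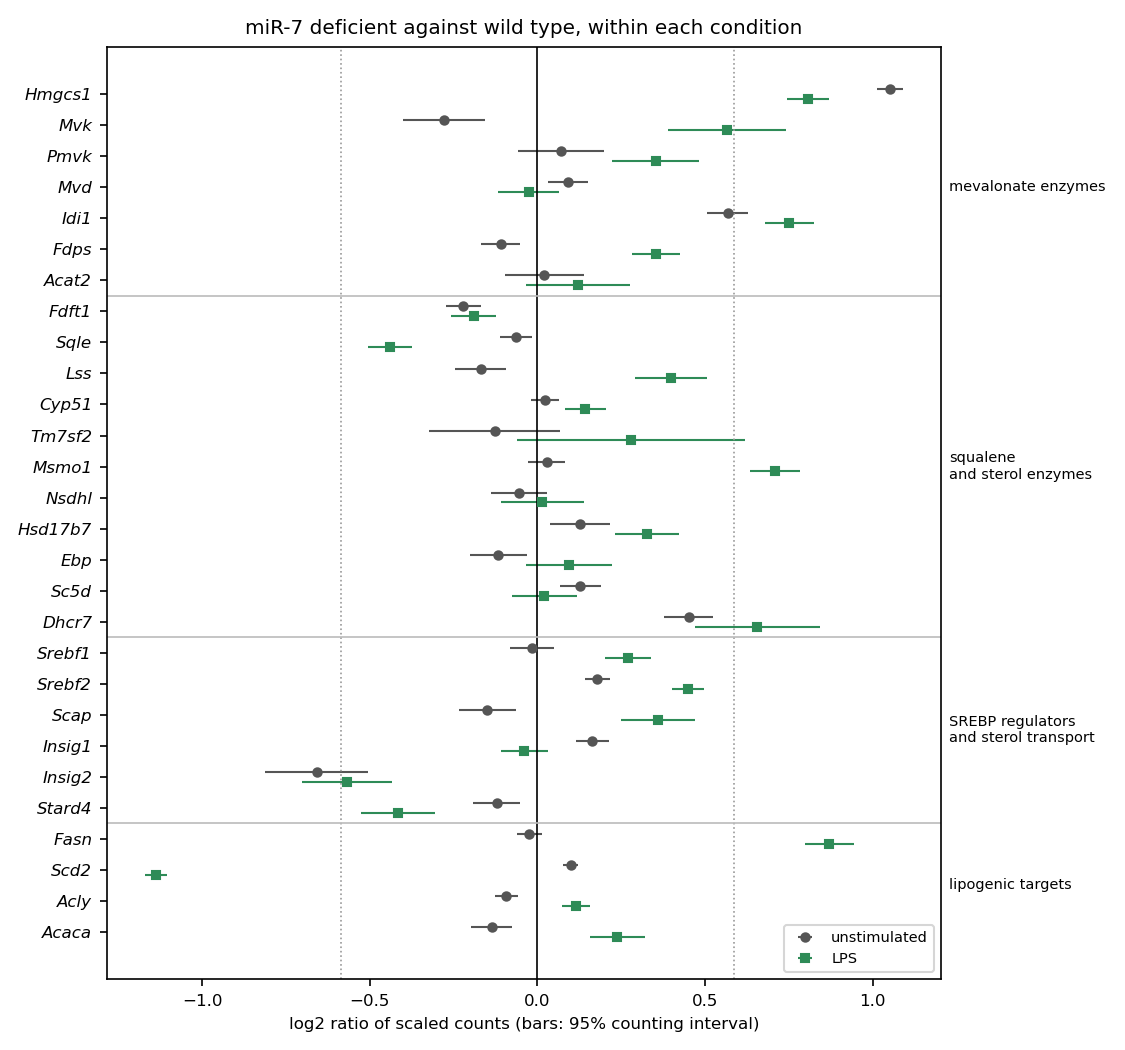
Log2 ratio of miR-7 deficient over wild type for each gene (rows, by role), unstimulated (grey circles) and with LPS (green squares), with 95% counting intervals as bars and dotted lines at 1.5-fold. Hmgcs1 is to the right in both conditions, Fasn and Msmo1 with LPS alone, and Scd2 far to the left with LPS at -1.14.

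The difference between the LPS ratios of the genotypes had no residual degree of freedom and was not tested. It is given as deficient minus wild type in log2, so that a positive value means less decrease in deficient cells. The difference had a median of 0.20 in the set and -0.00 over all genes, and was positive for 21 of the 28 genes and for 6336 of the 12730. Beyond 1.5-fold it was higher for Mvk, Msmo1 and Fasn (6.07% of all genes) and lower for Scd2 (8.94%). For Fasn the LPS ratio was -2.06 (95% interval -2.12 to -1.99) in wild type and -1.16 (-1.21 to -1.11) in deficient cells, a difference of 0.90 (0.81 to 0.98). For Mvk the difference was 0.84 (0.63 to 1.05), and for Msmo1 it was 0.68 (0.59 to 0.77). For Scd2 the LPS ratio was -0.07 in wild type and -1.31 in deficient cells, a difference of -1.24 (-1.28 to -1.20). Fasn and Scd2, both fatty acid enzymes, thus differed between the genotypes in opposite directions, each with 1 library per group. No gene of the set had an LPS ratio that changed sign between the genotypes, and the share of all genes that did was not counted.

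Seed sites of miR-7 were located because the deficiency is of that microRNA. The mature sequences from RefSeq are given with the seed, bases 2 to 8, in capitals, and they share it.
mmu-miR-7a-5p: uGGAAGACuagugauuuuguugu
mmu-miR-7b-5p: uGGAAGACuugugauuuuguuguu
Sites were searched as GTCTTCC, the complement of the seed, and TCTTCCA, the complement of bases 2 to 7 followed by A, in the longest annotated 3′ UTR of each gene in GENCODE M21. Of the 28 genes 10 held at least 1 of them (35.7%), against 26.4% of 11296 tested protein-coding genes, and the median UTR was 1217 bases in the set and 1187 bases among those genes. GTCTTCC alone was in 4 genes of the set, against 14.3% of tested genes. The sites of those 4 are shown in capitals with 11 bases before them and at least 11 after them. That of Srebf1 joins both forms.
Srebf1: cattggctgtgGTCTTCCAgagggtgagcc
Scd2: tcgaggggacaGTCTTCCtgggctagttga
Lss: cctgacccataGTCTTCCctccgacaagca
Hsd17b7: ctaagtaacttGTCTTCCttgtattgatag
They lie at chr11:60199873-60199880, chr19:44305359-44305365, chr10:76554537-76554543 and chr1:169949893-169949899 on GRCm38, and Scd2 has a TCTTCCA site as well. The genotype ratios of these 4 went in both directions: with LPS the log2 ratio was 0.27 for Srebf1, 0.40 for Lss, 0.33 for Hsd17b7 and -1.14 for Scd2. The other 6 genes with a site were Acat2, Fasn, Insig1, Msmo1, Mvd and Sc5d. Over the 10 genes with a site the median log2 genotype ratio was 0.06 without LPS and 0.20 with it, and over the 18 without one it was -0.10 and 0.26. Of the genes with a site 4 were higher in deficient cells in both conditions, and of those without one 6. Hmgcs1 and Idi1, the genes with the highest fitted genotype effects, held neither form.

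Srebf2 also hosts a microRNA, miR-33, whose mature form lies inside the gene at chr15:82198127-82198147 and is known for action on cholesterol export genes.
mmu-miR-33-5p: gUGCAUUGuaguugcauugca
Its seed is in capitals. The libraries were polyA-selected, so mature miR-33 was not measured, and the host gene values are those given above.

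The 4 lists around the set were read from the same fit as the set, in which 18.0% of all genes rose and 16.3% fell. In the isoprenoid branch, which takes farnesyl units to prenylated proteins, dolichol and ubiquinone, 0 of 15 genes rose and 0 fell in edgeR (2 at an unadjusted p under 0.05), and the median LPS effect was 0.12. The 15 include Mmab, which does not make these products. It starts beside Mvk and is read again with the neighbours below. In the list of other lipogenic SREBP targets 10 of 19 tested genes fell and 6 rose, with a median of -0.76. Those that rose were Me1 (edgeR, 1.98, adjusted p = 0.00127) and Acss2 (edgeR, 1.76, adjusted p = 0.00818), with Pgd, G6pdx, Slc25a1 and Rdh11. Lpin1, a phosphatidate phosphatase, was at 59.9 and 47.1 CPM without LPS and at 6.21 and 10.7 CPM with it, and fell by 2.70 (edgeR, adjusted p = 0.00176). Elovl6, a fatty acid elongase, went from 8.85 to 1.15 CPM (wild type) and 7.75 to 1.60 CPM (deficient) (edgeR, adjusted p = 0.00369). Mid1ip1, a regulator of acetyl-CoA carboxylase, went from 44.3 to 6.36 CPM (wild type) and 35.3 to 14.8 CPM (deficient) (edgeR, adjusted p = 0.0105). In wild type these 3 genes were 9.64-fold, 7.72-fold and 6.97-fold lower with LPS, against 5.48-fold for Dhcr7, and in deficient cells 4.42-fold, 4.84-fold and 2.38-fold lower, against 4.75-fold.

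The list of SREBP processing and sterol-driven turnover had 2 of 15 genes that rose and 0 that fell, with a median of 0.19 and 0 lower genes at an unadjusted p under 0.05; the share that rose was not above that of all genes. Rnf139 and Rnf145, ubiquitin ligases of the endoplasmic reticulum, rose by 0.94 (edgeR, adjusted p = 0.0183) and 0.74 (edgeR, adjusted p = 0.0246). Mbtps1, the first protease that cleaves the SREBPs, read 62.1 and 39.0 CPM in wild type and 62.8 and 50.6 CPM in deficient cells (edgeR, -0.49, adjusted p = 0.115). Mbtps2, the second, had a value of -0.23 (edgeR, adjusted p = 0.444). In the list on oxysterols, LXR and sterol handling 5 of 15 tested genes rose and 3 fell, the latter near the share of all genes, with a median of 0.11. Ch25h, which makes an oxysterol known to hold back SREBP processing, went from 1.73 to 74.9 CPM (wild type) and 1.02 to 134 CPM (deficient). Ch25h rose by 6.19 ± 0.45 (edgeR, adjusted p = 0.000341). Oxysterols were not measured, and a link between Ch25h and the falls in the set was not tested. Cyp27a1, a mitochondrial sterol hydroxylase, went from 21 to 3.65 CPM (wild type) and 21.6 to 5.15 CPM (deficient), and fell by 2.29 (edgeR, adjusted p = 0.00138). Stard3, a late endosomal sterol carrier, rose by 1.5 (edgeR, adjusted p = 0.00284), opposite to Stard4. Nr1h3, the gene of LXR alpha, read 21.4 and 29.8 CPM in wild type and 38.5 and 32.4 CPM in deficient cells (edgeR, 0.11, adjusted p = 0.757).

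**Figure D5:**
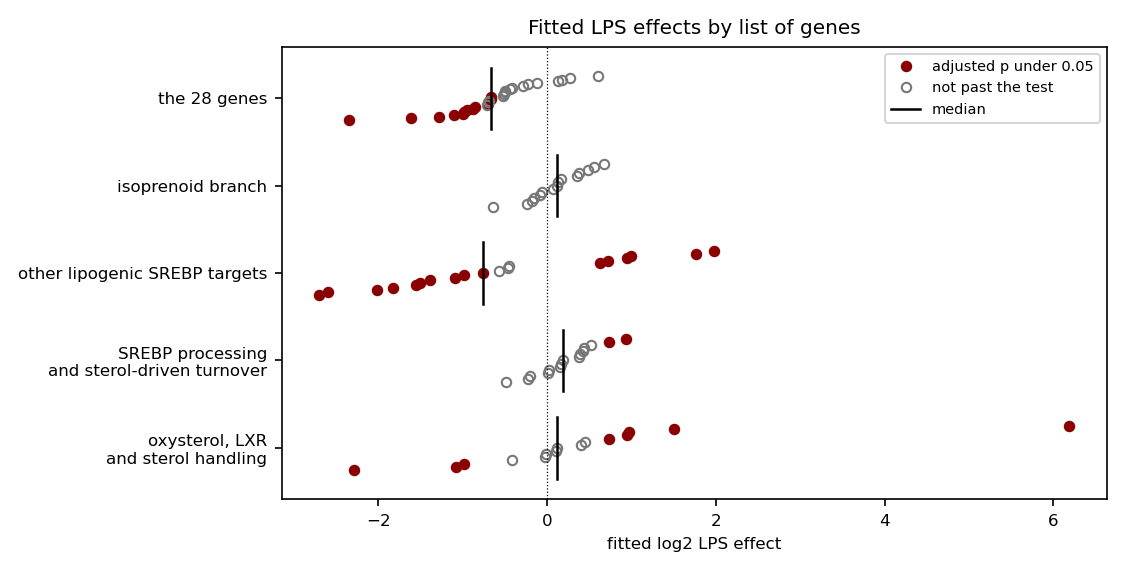
Fitted LPS effects (x axis, log2) of the 28 genes and the 4 lists around them; filled points passed edgeR at an adjusted p under 0.05, open points did not, and vertical bars are medians. The set is mostly left of 0 (median -0.67), the other lipogenic targets split to both sides, and the isoprenoid branch has no filled point.

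Counting could mix some of these genes with others, since no source used here gives the strand setting or the handling of multiply mapped reads. Exon bases of 10 genes overlap another gene in GENCODE M21, and 5 have a copy elsewhere of at least 90% identity over 300 bases or more, leaving 16 genes with neither, of which 9 fell. Over all genes tested, with or without overlaps and copies, 16.3% fell. The share among genes without them was not computed, and the count of 9 was chosen after seeing the data. Hmgcs1 shares 557 bases with the antisense Gm48342, listed at 30.4 and 16.3 CPM in wild type and 52.0 and 25.6 CPM in deficient cells, with the same order of libraries as Hmgcs1 (edgeR, LPS -0.96, adjusted p = 0.0143). Fdft1 shares 774 bases with the opposite-strand Ctsb, the cathepsin B gene, itself at 10381 to 13878 CPM. Idi1 has a processed pseudogene, Gm13502, identical over 684 aligned bases, at 3.51 and 2.65 CPM in wild type and 16.7 and 12.4 CPM in deficient cells, and that entry was higher in deficient cells (edgeR, 2.24, adjusted p = 0.0373). Scd2 and Scd1 are 95.5% identical over 623 bases. Scd1 did not show the Scd2 pattern: it was at 168 and 75.2 CPM in wild type and 179.6 and 103 CPM in deficient cells, and it fell by 0.98 (edgeR, adjusted p = 0.0109). Values of these genes are uncertain to that extent.

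Several genes of the set start within 1000 bases of a gene on the opposite strand, and these neighbours were read for comparison. Mmab, 209 bases from Mvk, read 14.0 and 12.5 CPM in wild type and 13.2 and 11.6 CPM in deficient cells (edgeR, -0.18, adjusted p = 0.582). Nadsyn1, 296 bases from Dhcr7, read 12.0 and 5.25 CPM in wild type and 9.0 and 5.77 CPM in deficient cells (edgeR, -0.92, adjusted p = 0.059). Cetn2, 146 bases from Nsdhl, had a value of -0.71 (edgeR, adjusted p = 0.0683), and Tada2a, 72 bases from Acaca, a value of -1.15 (edgeR, adjusted p = 0.0806). Gm48574, beside Idi1, was at most 1.39 CPM, and 3110045C21Rik beside Hsd17b7 and Gm26608 beside Insig1 were under the filter. All 5 neighbours tested had negative fitted LPS effects, as did 6591 of the 12730 genes tested, and none of the 5 passed the test.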

How the data were processed

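The authors deposited whole-number read counts per Ensembl gene, 1 file per library. Per the series design text, polyA RNA was sequenced on a HiSeq 2000, base calling used Casava 1.8.2, adapters were removed with Cutadapt, reads were aligned with TopHat 2.0.13 and Bowtie2, and exon annotation came from Partek; per the submitters' processing notes, counting used HTSeq and the build was mm8. Of 52550 IDs, 52403 matched GENCODE M21 (GRCm38), used here for names, coordinates and UTRs; RefSeq tables gave promoters and microRNAs. The 28 genes, roles and lists were chosen with earlier results of these data known. All 28 were named. From each list around them up to 3 called genes with the largest absolute effect and at least 5 CPM in 1 library were named. Ch25h, Nr1h3, Mbtps1 and Mbtps2 were added, as were the other lipogenic targets that rose. Genes with at least 1 CPM in 2 libraries (12730) were fitted in edgeR 4.0.16 (R 4.3.3, limma 3.58.1; TMM, additive model, quasi-likelihood), after a test on simulated counts; DESeq2 1.42.0 was an alternative. Library totals were 40745230, 39178290, 33937823 and 42074624. Ratios used scipy 1.17.1 intervals; the ratio of ratios added 0.5 counts and used a normal interval. Copies were found with BLAST+ 2.17.0+ and figures drawn with matplotlib 3.10.9 (Python 3.11.15, pandas 2.3.3). Alternatives were other scalings and filters, single-factor models, left-out libraries, removal of an assumed carry-over, and other limits and motifs. Counts over genes without overlaps or copies were chosen after seeing the data.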

Additional observations from a re-analysis of the deposited data

Results flagged for a closer look

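In 7 genes of the lists around the set the LPS ratio went up in one genotype and down in the other, with both counting intervals clear of a ratio of 1. The share of all genes that did so was not counted, so these 7 are not shown to be unusual. Each value is the difference of the log2 LPS ratios, deficient minus wild type. It rests on 1 library per group and was not tested. In prenylation, the prenyltransferase subunit gene Pggt1b had -0.73 (0.53 in wild type, -0.19 in deficient cells) and the prenylcysteine methyltransferase gene Icmt -0.75 (0.45 and -0.30). In sterol-driven turnover, the ubiquitin-conjugating enzyme gene Ube2g2 had 1.27 (-0.47 and 0.80) and the ubiquitin ligase gene Fbxw7 0.39 (-0.18 and 0.21). In sterol handling, Nr1h3 had -0.72 (0.48 and -0.25), the bile acid enzyme gene Hsd3b7 -0.47 (0.21 and -0.26) and the sterol transfer gene Gramd1a -0.46 (0.34 and -0.12).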

How the results depend on the processing

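No pairing of samples beyond the genotype term already in the model was possible, because each group has 1 library. For the same reason no library could be left out of a pair ratio. The number of genes that fell with LPS, 12 as reported, was 23 with total-count scaling and between 1 and 11 when 1 library was left out of a model with LPS alone, where the lone library is assumed to vary like the others (7 without wild-type LPS, 1 without either unstimulated library, 11 without deficient LPS); under the other settings it was 9 to 13. Under total counts Pmvk, Hsd17b7 and Srebf1 turned negative without passing the test. DESeq2's Wald test called 1 gene higher in deficient cells against 0. With a 2-fold limit in place of 1.5-fold, 3 genes were lower with LPS in wild type and 5 in deficient cells, 0 were higher in deficient cells with LPS, and 0 had a higher difference of LPS ratios. The looser sterol element was in 6 genes against 3, and the GTCTTCC site alone in 4 against 10. The other 79 counts recomputed stayed within 1.5 times of those reported. A count of 0 in both was taken as unchanged, and many of the 79 were of that kind. With genotype alone in the model 0 of all 12730 genes were called, so the genotype counts of the set could not move there. The depth gives narrow counting intervals, so the absence of repeat libraries limits what the ratios show.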
